A study of Homo sapiens with 8 samples.

Results

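The regions described here are G3BP1 peaks found after PDS treatment more than 10000 nt away from any peak that was called on the same strand in untreated cells. G3BP1 peaks had been listed separately for HEK293T cells, an established human embryonic kidney line, left untreated (Ctrl) or given 20 µM PDS for 12 h before crosslinking. From the PDS list, peaks were chosen by their distance to the nearest Ctrl peak on the same strand, which had to exceed that length, with no limit on enrichment or p. This took 1002 of the 2925 PDS peaks (34.3%, exact Clopper-Pearson 95% interval 32.5 to 36.0%), out of 4346 peaks in both lists. They are called far PDS peaks below. The other 1923 PDS peaks comprised 894 that overlapped a Ctrl peak by at least 1 nt and 1029 that lay within 10000 nt of one without overlapping it, on the same strand in each case. The study made 8 seCLIP libraries, 2 replicates each of immunoprecipitate (IP) and of input for either condition. The IP used an antibody to G3BP1 and the input used none. What was analysed is 1 list per condition, which holds no value per replicate. Membership itself was decided by the PDS against Ctrl comparison, and the height and length of a peak are tied to whether a peak is called at all. All values below are therefore descriptions without a test, and the intervals cover counting error over peaks only, and neighbouring peaks are not independent.

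G3BP1 is an RNA-binding protein that nucleates stress granules, the cytoplasmic assemblies of untranslated mRNA and protein that form when translation initiation stalls. It joins a protein interaction domain to an RNA recognition motif and a tail rich in arginine and glycine, a type of sequence found in many proteins that contact guanine quadruplexes. A guanine quadruplex is a fold of guanine-rich RNA or DNA in which runs of guanine stack in planar layers. What PDS stands for is not said in the labels; in this field it is usually pyridostatin, a small molecule that stabilises such folds. In seCLIP, ultraviolet light (UVA, per the labels) fixes protein to RNA, the protein is pulled down, and the attached fragments are sequenced beside an input library. A peak then marks a short stretch of RNA recovered more often in the IP than in the input. The comparison asks where peaks were called under PDS in stretches of the genome without a nearby peak in untreated cells.

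The far PDS peaks ranged widely in their distance from Ctrl peaks. The closest lay 10100 nt away, the median was 456950 nt, and the farthest lay 116966175 nt away. Of the 1002 peaks, 101 lay between 10000 and 20000 nt from a Ctrl peak, 147 between 20000 and 50000 nt, 69 between 50000 and 100000 nt, 266 between 100000 and 1000000 nt, and 419 (41.8%) beyond that. Distance alone does not tell whether a far peak and its nearest Ctrl peak share a transcript, and gene annotation was not used here. A Ctrl peak lay within 100000 nt on both sides of 65 far PDS peaks. On the opposite strand, 6 far PDS peaks had a Ctrl peak within 10000 nt.

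**Figure D1:**
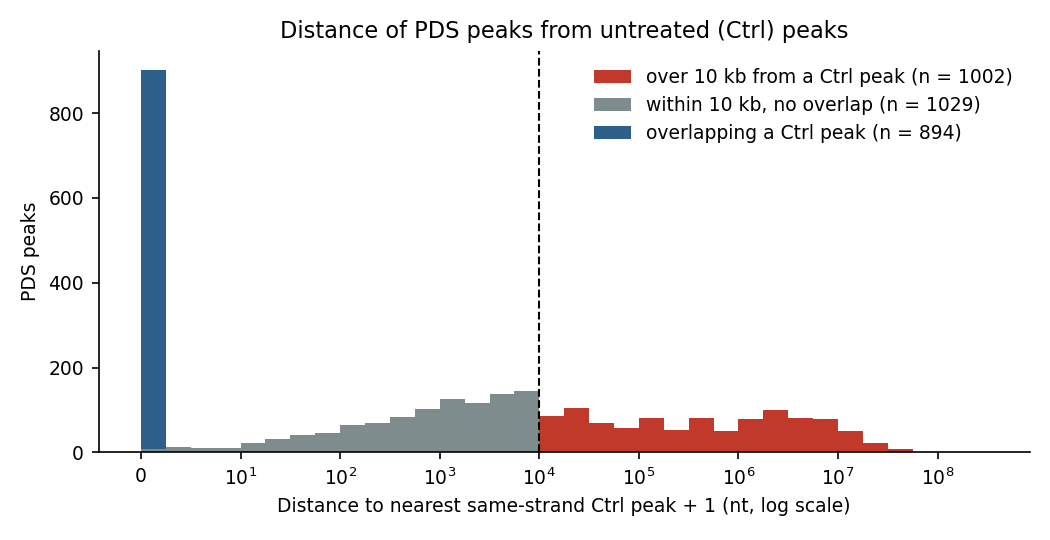
Histogram of the distance from each of the 2925 PDS peaks to the nearest Ctrl peak on the same strand, with distance plus 1 on a log scale and the number of peaks on the vertical axis; colours mark the 894 overlapping, 1029 near and 1002 far peaks, and the dashed line is the limit of 10000 nt. Peaks continue across the limit, from 9979 nt on one side to 10100 nt on the other.

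The limit ran through some clusters of peaks. Just inside it were peaks at chrX:39932425-39932472 (hg19, as all coordinates here; minus strand, log2 fold of IP over input 3.24, 10100 nt from a Ctrl peak), chr7:1543601-1543636 (minus strand, log2 fold 3.52, 10106 nt) and chr2:96962671-96962724 (minus strand, log2 fold 3.72, 10171 nt). They were followed by chr1:39906705-39906797 (plus strand, log2 fold 3.27, 10212 nt) and chr16:70590838-70590915 (plus strand, log2 fold 3.30, 10398 nt). Just outside were chr12:57891940-57891993 (plus strand, log2 fold 3.63, 9979 nt), chr11:61916211-61916251 (plus strand, log2 fold 3.15, 9970 nt) and chrX:39911343-39911430 (minus strand, log2 fold 3.50, 9961 nt). The other two were chr2:96962379-96962429 (minus strand, log2 fold 3.46, 9879 nt) and chr9:131356613-131356652 (plus strand, log2 fold 3.63, 9864 nt). The chromosome 2 peaks on either side of the limit are close neighbours. Of the far PDS peaks, 35 lay within 10000 nt of a PDS peak that was not far, and 2 within 1000 nt of one.

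The name given to these regions, sites on transcripts unbound without PDS, was not tested for any of them, since no peak was assigned to a transcript. Linking peaks by distance, as done next, does not show a shared transcript either. When peaks of both lists were linked wherever neighbours on a strand lay no more than 10000 nt apart, 54 far PDS peaks (5.39%), in 15 loci, were joined to a Ctrl peak through other PDS peaks. Those 54 had a median log2 fold of 3.75, against 3.36 for the other 948. A single locus, at chr9:131360717-131381216, held 22 of the 54, with a median log2 fold of 3.76. A stretch without a Ctrl peak is in any case a stretch where none passed the limits of that list, in which every peak had a log2 fold above 3. Reads were not analysed here, and weaker recovery in untreated cells cannot be told apart from none.

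By their medians, far PDS peaks were the least enriched of the 3 classes of PDS peaks, and the widest as listed, though not once neighbouring pieces were merged. The log2 fold of IP over input, the authors' own value for each peak, ranged from just above 3 to 5.92 with a median of 3.39 (quartiles 3.17 and 3.72). The median was 3.58 for peaks near a Ctrl peak and 3.97 for peaks overlapping one. A log2 fold of at least 4 was reached by 109 far PDS peaks (10.9%, 9.02 to 13.0%), by 264 of the near ones (25.7%, 23.0 to 28.4%) and by 435 of the overlapping ones (48.7%, 45.3 to 52.0%). Only 2 far PDS peaks reached 5.

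The −log10 p followed the same order, with medians of 13.0 for far, 19.1 for near and 24.9 for overlapping peaks. The value 400, which stands in for a p too small to be written, was carried by 5 far, 20 near and 57 overlapping peaks. The next highest value among far PDS peaks was 83.2. Widths ran in another order: the median was 78 nt for far peaks (quartiles 47.3 and 109 nt), 50 nt for near and 63 nt for overlapping ones. A width of at least 100 nt was found in 322 far PDS peaks (32.1%) and in 307 of the other 1923 (16.0%). Together the far PDS peaks covered 80965 nt, of 196589 nt in the whole PDS list.

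**Figure D2:**
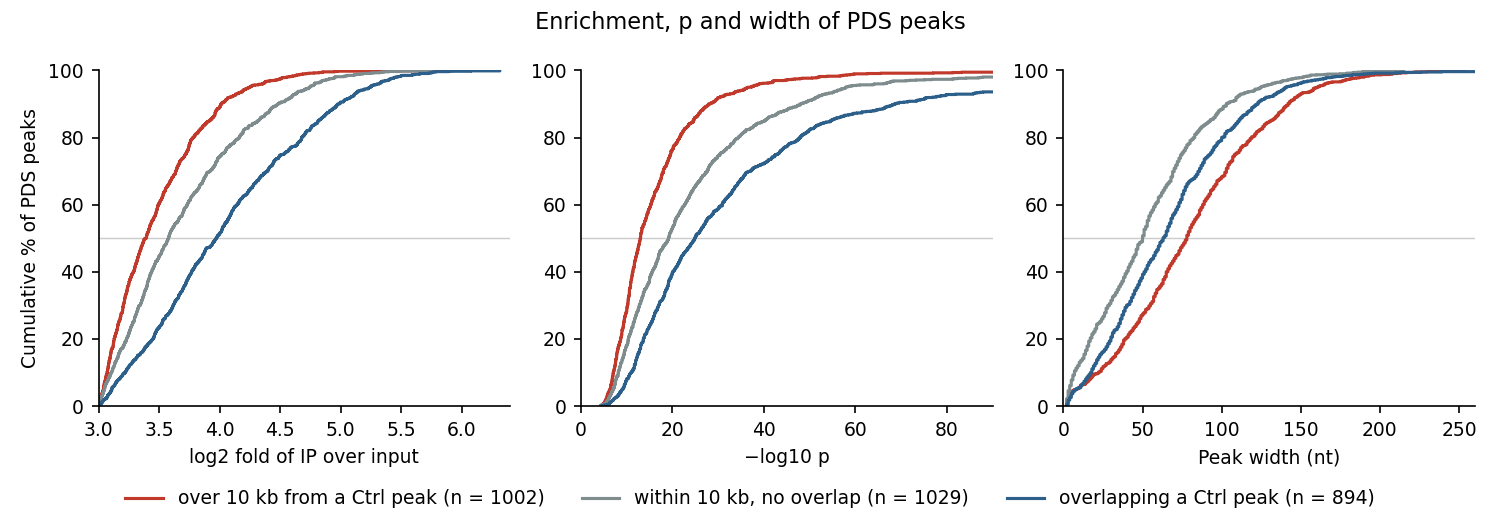
Cumulative percentage of PDS peaks against log2 fold of IP over input (left), −log10 p (middle, drawn to 90, with the stand-in of 400 beyond the axis) and peak width in nt (right), for 1002 far, 1029 near and 894 overlapping peaks; the grey line marks 50%. The far peaks lie to the left for enrichment and p, with medians of 3.39 and 13.0, and to the right for width, with a median of 78 nt.

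The share of far peaks was lower at higher enrichment. Of the 693 PDS peaks with a log2 fold below 3.25, 365 were far (52.7%, 48.9 to 56.4%), above the 34.3% of the whole list. The share was 41.4% from 3.25 to 3.5, 36.3% from 3.5 to 3.75, 31.1% from 3.75 to 4, and 18.3% from 4 to 4.5. From 4.5 to 5 it was 9.39% (23 of 245 peaks, 6.04 to 13.8%), and at 5 and above it was 1.90% (2 of 105 peaks, 0.232 to 6.71%).

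At a matched log2 fold the far PDS peaks also had the lower −log10 p. In the lowest bin the median was 9.48 for far PDS peaks, 11.4 for the other PDS peaks and 7.28 for the Ctrl list. From 4 to 4.5 the medians were 21.1, 27.3 and 19.1. Far PDS peaks lay between the other PDS peaks and the Ctrl peaks in 7 of 7 bins, although the highest bin held 2 far peaks. Read numbers were not analysed here, so the part of depth in which peaks were far was not tested.

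**Figure D3:**
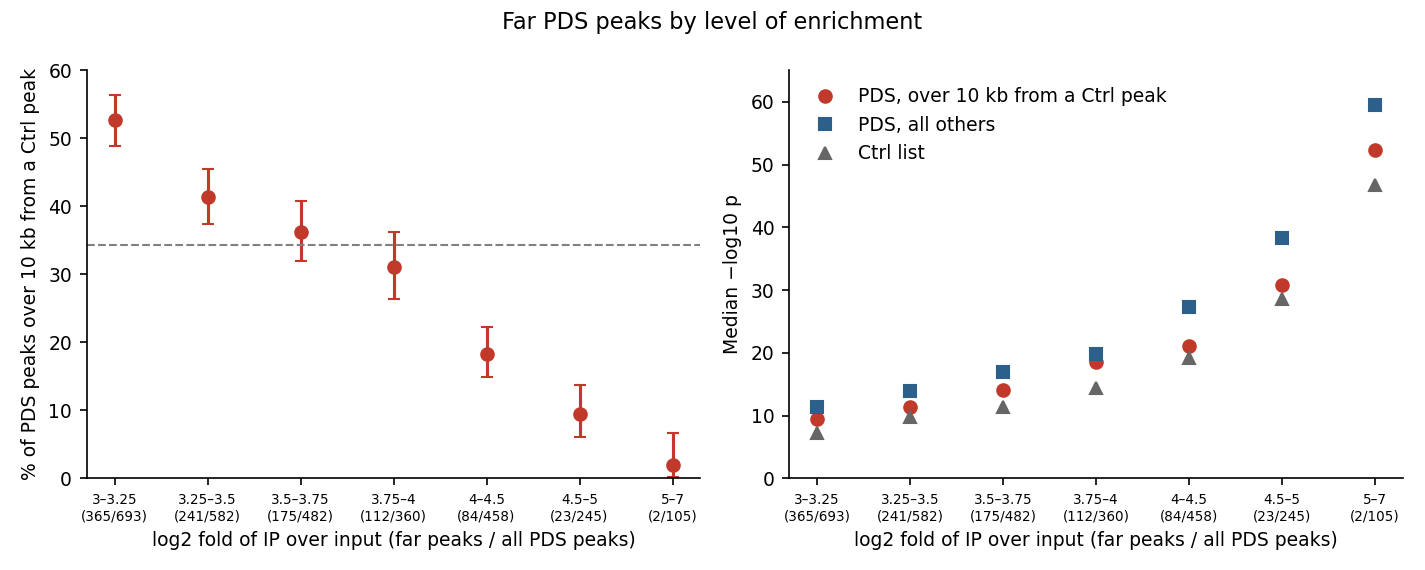
Left, percentage of PDS peaks that were far from a Ctrl peak in bins of log2 fold of IP over input, with exact 95% intervals and the share in the whole list (34.3%) as a dashed line; right, median −log10 p per bin for far PDS peaks, other PDS peaks and Ctrl peaks. Numbers under the bins are far peaks over all PDS peaks, and the share goes from 52.7% in the lowest bin to 1.90% in the highest.

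Width split the list too. Among PDS peaks shorter than 20 nt, 95 of 429 were far (22.1%, 18.3 to 26.4%), and among those of 120 nt or more, 198 of 361 were (54.8%, 49.6 to 60.1%). In each of the 7 width bins the median log2 fold of far peaks was below that of the other PDS peaks, for example 3.48 against 3.79 for the shortest and 3.36 against 3.61 for the widest.

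Far peaks less often shared a border with another PDS peak. A peak with such a border was called abutting, as can happen when a longer stretch is listed in pieces. This held for 262 far PDS peaks (26.1%, 23.5 to 29.0%), against 462 near ones (44.9%, 41.8 to 48.0%) and 462 overlapping ones (51.7%, 48.3 to 55.0%). The abutting share of far peaks was 16.2% without peaks under 20 nt and 11.9% with each locus counted once. Neither was computed for near or overlapping peaks, so these values cannot be set against the shares above. The 262 fell into 121 runs, 105 of 2 peaks and 16 of 3 or more, with a median total length of 97 nt. Abutting far peaks had a median width of 48 nt and a median log2 fold of 3.49, and the 740 others 87 nt and 3.34. Merging peaks within 50 nt left 831 far regions with a median width of 91 nt, beside 68 nt for the merged near peaks and 95 nt for the merged overlapping ones. The overlapping regions, not the far ones, were thus the widest after merging. The longest runs held 4 peaks. They lay at chr4:6642789-6642986 (plus strand, 198 nt, log2 fold 3.05 to 3.93), chr16:29706400-29706520 (plus strand, 121 nt, 3.12 to 3.72), chr2:96965067-96965165 (minus strand, 99 nt, 3.45 to 4.11) and chr9:131360717-131360783 (plus strand, 67 nt, 3.77 to 4.73).

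Most far PDS peaks stood alone or in small groups. Linked by the same spacing among themselves, they formed 540 clusters, called loci here. Without annotation a locus is not a gene. A single peak made up 353 of them (65.4%, 61.2 to 69.4%), 100 held 2 peaks, and 87 held 3 or more. The other PDS peaks, linked in the same way, formed 433 loci, of which 152 held a single peak (35.1%, 30.6 to 39.8%). Loci of 5 or more peaks contained 284 far PDS peaks (28.3%) in 38 loci, and 1322 of the other PDS peaks (68.7%) in 109 loci.

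Enrichment and width differed with the number of peaks in a locus. The 353 lone far peaks had a median log2 fold of 3.28, a median −log10 p of 10.7 and a median width of 102 nt. In loci of 2 peaks these medians were 3.36, 11.7 and 81 nt, in loci of 3 peaks 3.40, 15.5 and 65 nt, in loci of 4 peaks 3.48, 13.9 and 62.5 nt, in loci of 5 to 9 peaks 3.50, 16.9 and 57 nt, and in the 7 loci of 10 or more peaks 3.59, 20.5 and 38 nt. From the lone peaks to the largest loci the median fold was higher at each step and the median width as listed smaller. The −log10 p did not follow the order between 3 and 4 peaks. Once pieces within 50 nt were merged, the widths differed less. The median was then 102 nt for lone peaks, 83 nt in loci of several peaks and 79 nt in loci of 5 or more. Of the 284 peaks in loci of 5 or more, 134 (47.2%) abutted another.

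**Figure D4:**
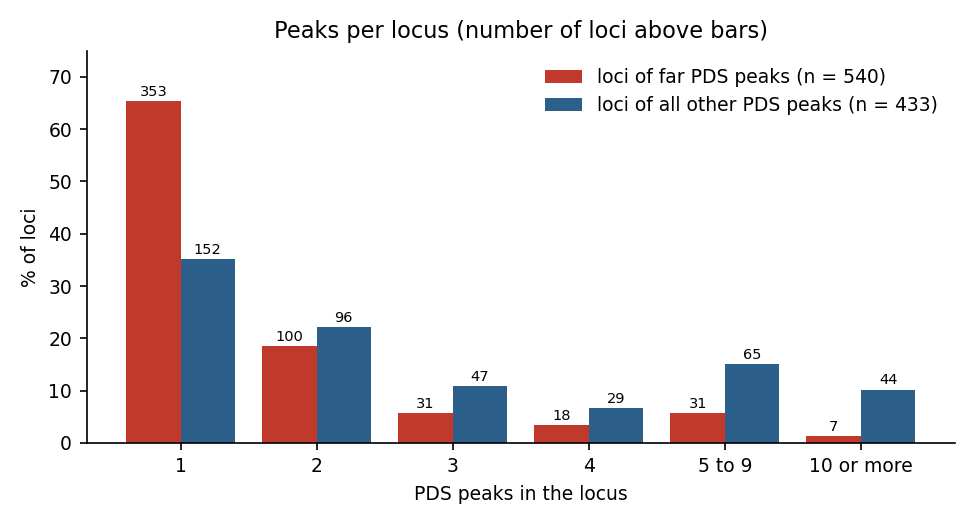
Percentage of loci (bars, with the number of loci above) by the number of PDS peaks in the locus, for the 540 loci of far PDS peaks and the 433 loci of all other PDS peaks. Single peaks make up 65.4% of the first and 35.1% of the second.

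Within loci, consecutive far peaks were separated by a median of 363 nt. Of 462 such gaps, 141 were 0 nt, 30 were 1 to 50 nt, 119 were 51 to 1000 nt and 172 (37.2%) were longer. In the 100 loci of 2 peaks, the upstream peak had the higher log2 fold in 57 and the downstream one in 43. In the 87 loci of 3 or more peaks, the most enriched peak was the first in 5′ to 3′ order in 19, the last in 17 and an inner one in 51. Inner peaks made up 52.3% of the peaks of such a locus on average. Within these loci the highest and the lowest log2 fold differed by a median of 0.74, with a range from 0.07 to 2.81.

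The 10 highest far peaks, 1 per locus, stood in loci of several peaks in 9 of 10 cases. Of all 1002 far peaks, 649 stood in such loci, although 353 of the 540 loci held a single peak. A locus with more peaks has more chances to hold a high one. The highest log2 fold of a locus had a median of 3.28 in single-peak loci and 4.35 in loci of 10 or more peaks. The part of this in the 9 of 10 was not tested. The highest lay at chr20:2444451-2444542 (minus strand), with a log2 fold of 5.92 and a −log10 p of 62.7. It was the last of 3 peaks spread over 6988 nt. The upstream ones, at chr20:2451334-2451438 and chr20:2446391-2446441, had log2 folds of 3.12 and 3.30, so that this locus also had the widest difference among its peaks. The nearest Ctrl peak of the locus was 192867 nt away.

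The second lay at chr16:27499665-27499721 (minus strand, log2 fold 5.29). It was the fourth of 8 peaks within 3614 nt, which ranged from 3.06 to 5.29. The third lay at chr19:50775902-50775988 (plus strand, log2 fold 4.97). Its locus of 7 peaks, none of which abutted another, spanned 18476 nt, and its lowest peak had a log2 fold of 3.48. In 5′ to 3′ order those 7 peaks had log2 folds of 3.73, 4.97, 4.01, 3.85, 3.97, 3.48 and 4.39, with a median width of 112 nt. This was a locus of wide and separate peaks, whereas each of the 5 largest loci below held abutting ones.

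The fourth, at chr8:48872594-48872634 (minus strand, log2 fold 4.95), formed a single stretch of 100 nt with the peak beside it (4.63). The fifth, at chr1:151497178-151497314 (plus strand, log2 fold 4.85), belonged to a locus of 13 peaks described below. The sixth, at chr5:140903712-140903788 (minus strand, log2 fold 4.84), was the last of 4 peaks within 4360 nt. The seventh, at chr2:47403579-47403653 (minus strand, log2 fold 4.82), was the only one of the 10 that stood alone, 3180507 nt from the nearest Ctrl peak.

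The eighth, at chr10:105182777-105182891 (plus strand, log2 fold 4.78), had 1 neighbour 2165 nt downstream by start (3.48). The ninth, at chr9:131360748-131360779 (plus strand, log2 fold 4.73), lay 13999 nt from a Ctrl peak in the locus with most far peaks. The tenth, at chr17:37009319-37009353 (minus strand, log2 fold 4.71), was the first of 4 peaks within 2964 nt. Distances of these 10 peaks to a Ctrl peak thus ran from 13999 to 3180507 nt.

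The locus with most far PDS peaks, 22, was at chr9:131360717-131381216 (plus strand). It is one of the 15 loci that other PDS peaks connect to Ctrl peaks: the whole chain held 32 PDS and 2 Ctrl peaks, the nearest of the latter 13968 nt away. Its first 4 peaks formed an abutting run of 67 nt with log2 folds of 3.77, 4.58, 4.73 and 3.96. The following peaks lay 5105 to 20467 nt downstream and ranged from 3.12 to 4.41. Merging within 50 nt reduced the 22 peaks to 14 regions, which covered 718 nt in all.

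The next 4 loci had no Ctrl peak in their chains. At chr17:8383768-8416932 (minus strand), 16 peaks in 10 merged regions were spread over 33165 nt. Their log2 folds ranged from 3.12 to 3.76, with a median of 3.46, beside 3.39 for all far PDS peaks. At chr1:151495927-151508099 (plus strand), 13 peaks in 9 regions ranged from 3.01 to 4.85 and covered 1068 nt, more than in any other locus of far peaks. Its 3 highest peaks, with log2 folds of 4.85, 4.64 and 4.52, were 137, 125 and 140 nt wide and lay 1251, 5923 and 7038 nt from the 5′ end of the locus. At chr10:105200281-105205342 (plus strand), 12 peaks in 7 regions ranged from 3.06 to 4.35. Here the 6 most upstream peaks stayed between 3.06 and 3.41 and the 6 downstream ones between 3.60 and 4.35.

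The locus at chr2:232319917-232327912 (minus strand) stood apart in its p. Its 14 peaks in 9 regions had a median log2 fold of 3.16 and a median −log10 p of 68.2, beside 13.0 for all far PDS peaks. It contained 4 of the 5 far peaks at the stand-in of 400, with log2 folds of 3.001, 3.05, 3.13 and 3.09. The remaining far peak at 400 lay at chr19:4494290-4494470 (plus strand, 181 nt, log2 fold 3.36). All 5 had a log2 fold below 3.39, the median of the far peaks, and they are named because of their p, after it was seen. The most enriched peak of the chromosome 2 locus, at chr2:232320723-232320760, had a log2 fold of 4.06 and a −log10 p of 20.2.

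**Figure D5:**
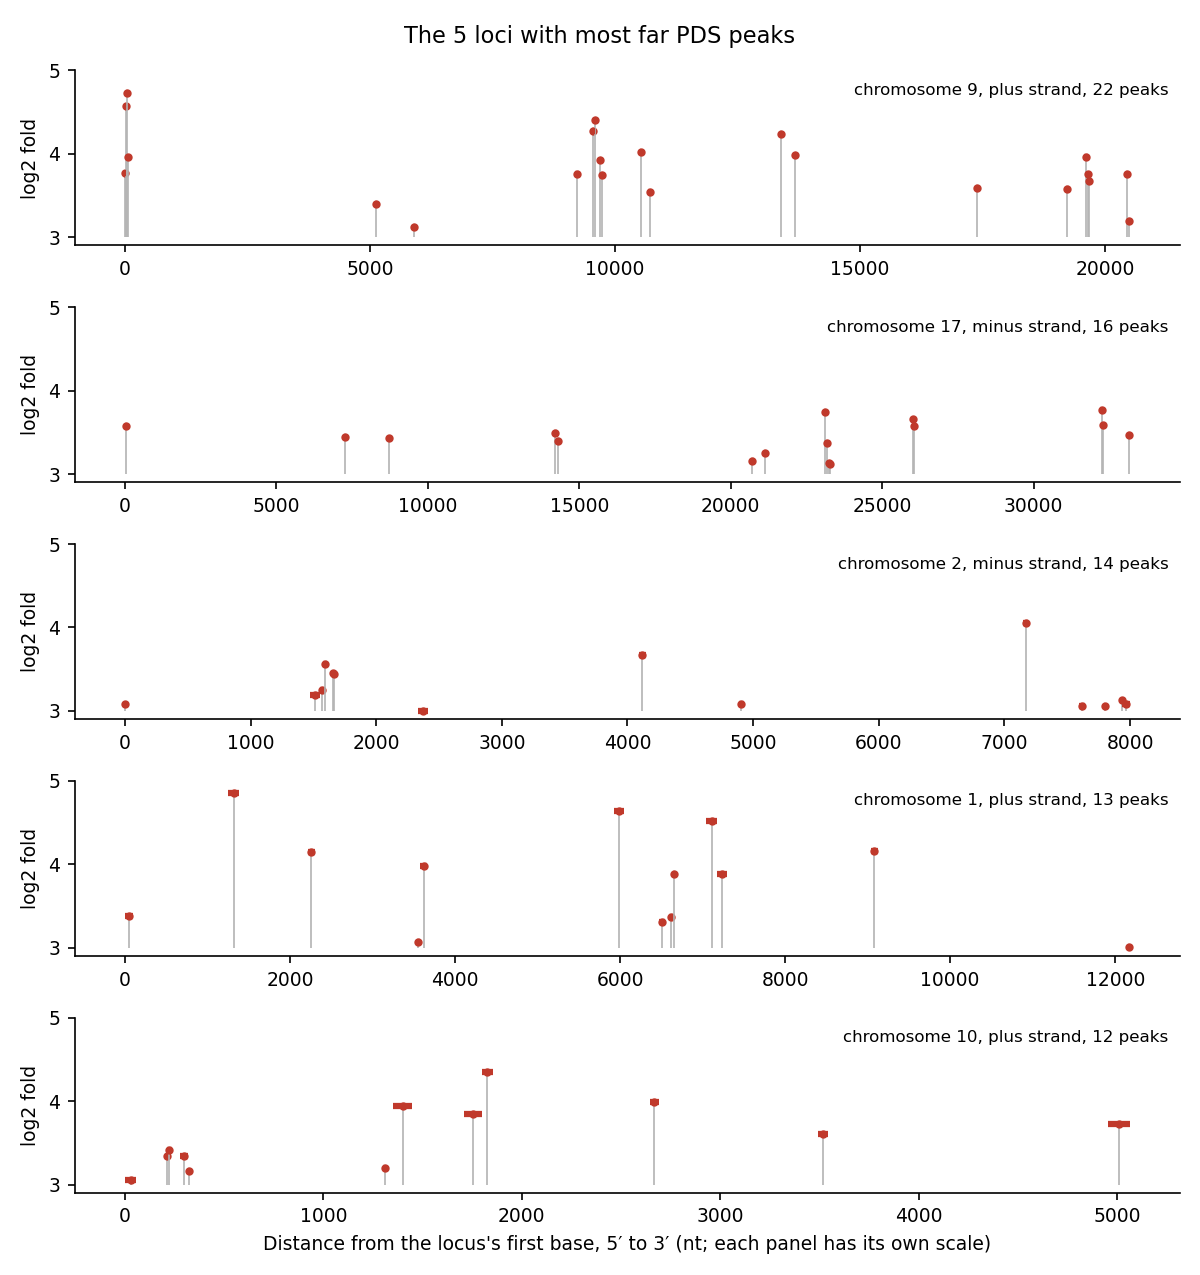
The 5 loci with most far PDS peaks, each peak drawn at its log2 fold of IP over input (vertical axis, starting just below 3, the lowest value in the list) against its distance in nt from the 5′ end of the locus; bars give the peak width, stems only lead to the axis, and each panel has its own horizontal scale. Peaks of the chromosome 17 locus stay below 3.8, and those of the chromosome 1 locus reach 4.85.

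By length covered, the chromosome 1 locus was followed by the chromosome 17 locus (896 nt), the chromosome 19 locus described above (750 nt) and the chromosome 9 locus (718 nt). The fifth was a compact locus at chr17:55182938-55184529 (plus strand), where 9 peaks in 4 regions covered 652 of 1592 nt. Its log2 folds ranged from 3.23 to 4.25, and 6 of its peaks abutted another. The nearest Ctrl peak lay 20187 nt away.

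Far PDS peaks were found on all 23 chromosomes with PDS peaks, in unequal shares. On chromosome 4, 30 of 34 PDS peaks were far (88.2%, 72.5 to 96.7%), and the Ctrl list had 8 peaks there. On chromosome 8, 17 of 151 were far (11.3%, 6.70 to 17.4%), with 103 Ctrl peaks. Chromosome 1 held the most, 129 in 64 loci, and chromosome 17 came next with 93 in 34 loci. On chromosome 19, 70 of 253 PDS peaks were far (27.7%, 22.2 to 33.6%). On chromosome 17, with 108 Ctrl peaks, the share was 43.1%. Since the rule uses distance to a Ctrl peak, these shares depend on where Ctrl peaks lie, and the part of their density was not tested. The median log2 fold of far peaks varied between 3.17 and 3.55 over the chromosomes.

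The strands were used unequally as well. The plus strand carried 570 far PDS peaks (56.9%, 53.8 to 59.98%), against 771 of the other 1923 PDS peaks (40.1%, 37.9 to 42.3%) and 625 of 1421 Ctrl peaks (44.0%). Of the 295 Ctrl peaks more than 10000 nt from a PDS peak of their strand, 155 (52.5%, 46.7 to 58.4%) were on the plus strand. Counted by loci, 303 of 540 far loci were on the plus strand (56.1%, 51.8 to 60.3%) and 197 of 433 loci of the other PDS peaks (45.5%, 40.7 to 50.3%). In the Ctrl list, linked over the same spacing, 331 of 688 loci were on the plus strand (48.1%, 44.3 to 51.9%). Far loci were more numerous on the plus strand on 14 chromosomes, on the minus strand on 5, and equal on 4. The count over chromosomes was not made for the other PDS loci or the Ctrl loci. The rule measures distance within a strand, and the Ctrl list has 796 minus-strand peaks; the part of this in the strand shares was not tested. With Ctrl peaks of either strand in the rule, 57.1% of the far peaks and 40.02% of the rest were on the plus strand. That rule kept 996 of the 1002 far peaks, so the shares could hardly differ and do not decide that part.

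The 5 peaks farthest from a Ctrl peak of their own strand were single, as were 353 of all 1002 far peaks. Their log2 folds lay below 3.39, the median of far peaks, while lone far peaks had a median of 3.28. On chromosome 4 a peak at chr4:174292345-174292519 (plus strand, log2 fold 3.32) lay 116966175 nt away. Close to it in the genome but on the other strand, a peak at chr4:174253134-174253228 (minus strand, log2 fold 3.12) lay 51653486 nt from its nearest Ctrl peak. The next were at chr2:153573840-153573946 and chr2:136633835-136633934 (both minus strand, log2 fold 3.32 and 3.10) and at chr11:9336059-9336144 (minus strand, 3.08). All 5 were alone in their loci. By distance, the 248 far peaks within 50000 nt of a Ctrl peak had a median log2 fold of 3.53 and a median width of 59 nt, and the 754 beyond it had 3.34 and 82 nt. In the 3 outer bins of distance, from 50000 nt on, the median log2 fold was 3.33, 3.34 and 3.33, while the median width was 68, 79 and 86 nt.

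The opposite selection gave peaks with similar traits. Of the 1421 Ctrl peaks, 295 (20.8%, 18.7 to 23.0%) lay more than 10000 nt from the nearest PDS peak of the same strand. Their median log2 fold was 3.34, their median width 90 nt, and 40 of them (13.6%) abutted another Ctrl peak. In the whole Ctrl list these values were 3.52, 74 nt and 20.3%. A lower median fold, a greater width as listed and fewer abutting neighbours were thus found, in each list, in peaks more than 10000 nt from the other. The near PDS peaks, which overlapped no Ctrl peak either, had a median width of 50 nt, and 44.9% of them abutted. The 2 lists differ in length and in their −log10 p at a matched fold, and whether the larger share of far peaks in the PDS list exceeds the spread between replicates could not be tested.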

How the data were processed

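G3BP1 seCLIP libraries of HEK293T cells (8 libraries in 4 groups of 2) were analysed through 2 deposited peak lists. The submitters' processing notes name cutadapt, UMI-tools, STAR and build hg19. How peaks were called and filtered, and how the authors merged replicates before deposit, is not given in the sources used here. The lists have no header: column 4 was read as the authors' −log10 p and column 5 as the authors' log2 fold of IP over input, from the values and the usual eCLIP peak format. Starts count from 0 in the files and from 1 in the text. Distances are the bases between 2 peaks on 1 strand; loci were chained over gaps of up to 10000 nt and regions merged within 50 nt (python 3.11.15, with pandas 2.3.3 and numpy 2.4.6; intervals from scipy 1.17.1). Distances were tested on simulated data and checked with bedtools 2.31.1. Depth is unknown. Labels do not say whether replicates were separate cultures. Beside the highest and the most numerous, named items were those at the limit, the farthest and those covering most nt. The members and lists were chosen with earlier results of these data known; the longest runs and the peaks at 400 were picked after their values were seen. Without an hg19 genome or annotation, genes, transcript regions and quadruplex patterns were not analysed here.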

Additional observations from a re-analysis of the deposited data

How the results depend on the processing

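Recomputing the results under other settings gave 68 alternative values, of which 35 were close to the reported value and 33 moved. Close meant within 1.5 times for the number of loci and within the main 95% interval otherwise. Most settings gave several of these values, which are not independent. Causes were not tested. The share of PDS peaks that are far was 52.2, 39.9, 25.8 and 23.4% with limits of 1000, 5000, 50000 and 100000 nt, 13.5% with a stricter threshold in the PDS list (log2 fold of at least 4, −log10 p of at least 5), 37.0% with it in both lists, 40.8% for merged regions, 36.5% without peaks under 20 nt and 32.4% without the 54 peaks joined to Ctrl peaks, an alternative added after seeing the data. The stricter PDS threshold left 82 loci. Single-peak loci made up 59.9% with a limit of 1000 nt, 79.3% with the stricter PDS threshold, 71.9% for merged regions, and 75.8 and 59.8% with loci chained over 1000 and 50000 nt. With limits of 1000, 50000 and 100000 nt, the median log2 fold was 3.43, 3.34 and 3.34, the median −log10 p 14.3, 12.2 and 12.3, the median width 68, 82 and 83 nt, and the abutting share 31.2, 22.5 and 23.4%. With each locus counted once, −log10 p was 11.7, width 90 nt and the abutting share 11.9%. The width was 91 nt for merged regions and 82 nt without peaks under 20 nt, where the abutting share was 16.2%. Under the 5 limits from 1000 to 100000 nt, and with Ctrl peaks of either strand, far peaks had the lower median fold and −log10 p, the greater width and the smaller abutting share than the rest of the list. No paired analysis was possible because each list gives 1 value per peak for both replicates together; no replicate could be left out. Alternatives on genes, transcript regions and quadruplex patterns were not run. Unknown depth limits any statement on peaks missing from the Ctrl list.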

Other observations

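Many −log10 p values recurred exactly. Among the 1002 far PDS peaks there were 718 distinct values, and 446 peaks (44.5%) shared theirs, to every deposited digit, with another far peak. Among the other 1923 PDS peaks 801 (41.7%) shared a value within that set, and in the whole PDS list 52.9% did. In the whole Ctrl list 987 of 1421 peaks (69.5%) shared a value within that list. Counted within each set alone, 135 of the 353 far PDS peaks alone in their locus shared a value with another of that set, and 38 of the 284 in loci of 5 or more peaks did.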
